A study of Bos taurus
Mus musculus with 10 samples.

Results

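The caveola genes CAV1, CAV2, CAVIN1 and CAVIN2, the annexin gene ANXA2 and the channel gene PIEZO1 are described here in bovine embryonic stem cells and, through their mouse counterparts, in the fibroblasts on which the stem cells grew. They are 6 of 27590 genes in the bovine table and, as Cav1, Cav2, Cavin1, Cavin2, Anxa2 and Piezo1, 6 of 31349 in the mouse table. They were chosen by symbol, or by NCBI gene ID in the mouse, as a group of caveola and membrane tension genes, with their changes between the media within lines in these same data already known. Changes between the media are therefore given as a description. Whether a gene passed the threshold over all genes is stated to describe it, without its p, and is no evidence for the choice. Every group consisted of wild-type bovine lines 1, 2, 4, 8 and 11, derived from blastocysts of day 7.5 and co-cultured with feeders. The feeders came from CD-1 mouse fetuses and mitomycin C had stopped their growth. From each line, 1 well kept medium with 2.5 µM IWR-1, a tankyrase inhibitor that lowers Wnt/beta-catenin signalling, and 1 well was changed to medium without it. RNA was extracted from whole wells, both species mixed, after 1 day, giving 5 libraries per medium. Each line was represented by 1 well per medium, so that the spread between lines also holds differences between wells.

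Caveolae are small flask-shaped pits of the plasma membrane. Caveolins are their integral membrane proteins, with caveolin 1 required for the pits of most cell types, and cavins are the cytoplasmic coat that stabilises them. Caveolae flatten when the membrane is stretched and are abundant in fibroblasts, endothelium, smooth muscle and adipocytes. Annexin A2 binds negatively charged membrane lipids in a calcium-dependent way, links membrane to cortical actin and forms a complex with S100A10. PIEZO1 is a cation channel opened by membrane tension.

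Reads were assigned to the 2 species separately, and 48064953 to 64345738 fell on bovine genes and 17101894 to 35223039 on mouse genes per library. The values are the authors' normalised read counts. From the values themselves they appear to be reads divided by a factor of the library, which no source used here names. The share of mouse reads averaged 30.4% ± 7.57 in wells with the inhibitor and 26.8% ± 8.45 in wells lacking it (SD, n = 5 each). The paired difference averaged -3.64 percentage points and was negative in 5 of 5 lines (p = 0.0625, two-sided exact sign-flip test, the smallest p that 5 pairs allow). The wells of line 4 had the highest mouse shares, 42.3% and 41.4%. All 8 pluripotency markers were above 0 in all 10 libraries, with a summed normalised read count of 96740 to 192091. The sum was lowest in line 4, at 100521 with IWR-1 and 96740 without it. Being above 0 does not single out stem cells, since the 6 smooth muscle markers were above 0 in every well too. Line 4 also carried the highest levels of bovine fibroblast markers, at a summed 238290 and 253443 against 50416 to 111790 in the other lines. Fewer cells of a type and less RNA per cell cannot be told apart in such wells. Mouse IDs other than those of the 6 genes were not paired with names, so the fibroblast label of the feeders was not checked.

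In the bovine stem cells ANXA2, CAVIN1 and PIEZO1 were higher without IWR-1 in all 5 lines, whereas the caveolin genes CAV1 and CAV2 went either way. Of the 6 genes, 5 passed the filter on low values and CAVIN2 did not. Of those 5, 3 were called higher and 0 lower by limma with the line as a block, at an adjusted p under 0.05 over all 18506 bovine genes tested. Over the whole bovine table, 0.886% of genes were called higher and 0.0648% lower. These are the values with which the genes were chosen, and nothing is read from the count. The median log2 fold change was 0.47 over the 5 genes and 0.00 over all genes tested. Without the block, 0 of the 5 were called, and 2 had an unadjusted p under 0.05. That limma fit called 0 of all 18506 genes, with 105 at an unadjusted p under 0.05.

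ANXA2 (gene ID 282689), the membrane and actin linker, stood at normalised read counts of 721, 1467, 1966, 1798 and 1589 with IWR-1 in lines 1, 2, 4, 8 and 11. Without IWR-1 the same lines stood at 1247, 2102, 2882, 3178 and 3412. Line 1 was lowest in both media, and its well without IWR-1 lay below 4 of the 5 wells with it, so the groups overlapped although each line rose. The mean went from 1508 ± 480 to 2564 ± 887 (SD, n = 5), a log2 fold change of 0.76 ± 0.08 (SE), or 1.69-fold. The smallest change was in line 2, at 0.52 on the log2 scale, and the largest in line 11, at 1.10. With 1 line left out the log2 fold change was 0.67 to 0.82.

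CAVIN1 (gene ID 538457), which encodes the coat protein needed to form caveolae together with caveolin 1, stood at 440, 283, 414, 597 and 270.0 normalised reads with IWR-1 in lines 1, 2, 4, 8 and 11. Without it the values were 602, 571, 619.8, 741 and 513. The 5 lines were closer together without IWR-1 than with it, and the wells overlapped because line 8 was high in both media. The mean went from 401 ± 134 to 609 ± 84.0 (SD, n = 5), a log2 fold change of 0.66 ± 0.11 (SE). The change was largest in lines 2 and 11, the lines with the lowest starting level, at 1.01 and 0.92, and smallest in line 8, at 0.31. With 1 line left out the log2 fold change was 0.57 to 0.74, and the call ended without line 1, 4 or 11.

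PIEZO1 (gene ID 789183), the tension-gated channel, stood at 3083, 3989.5, 4317, 3195 and 2453 normalised reads with IWR-1 in lines 1, 2, 4, 8 and 11. Without IWR-1 it stood at 4081, 6571, 6146, 3258 and 3921. Lines 2 and 4 were the 2 highest in both media, and line 8 moved least, by 0.03 on the log2 scale against 0.40 to 0.72 in the other lines. The log2 fold change over the 5 lines was 0.47 ± 0.09 (SE), with means of 3407 ± 746 and 4796 ± 1468 (SD, n = 5). It was 0.58 without line 8, and the call ended without line 1, 2, 4 or 11 (0.40 to 0.48). In RefSeq's annotation of bovine assembly ARS-UCD2.0, PIEZO1 overlaps CTU2, a tRNA thiolation gene. CTU2 averaged 1700 ± 260 normalised reads with IWR-1 and 1720 ± 169 after its removal (SD, n = 5; log2 fold change 0.03 ± 0.07 SE). No source used here states whether counting used strand.

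**Figure D1:**
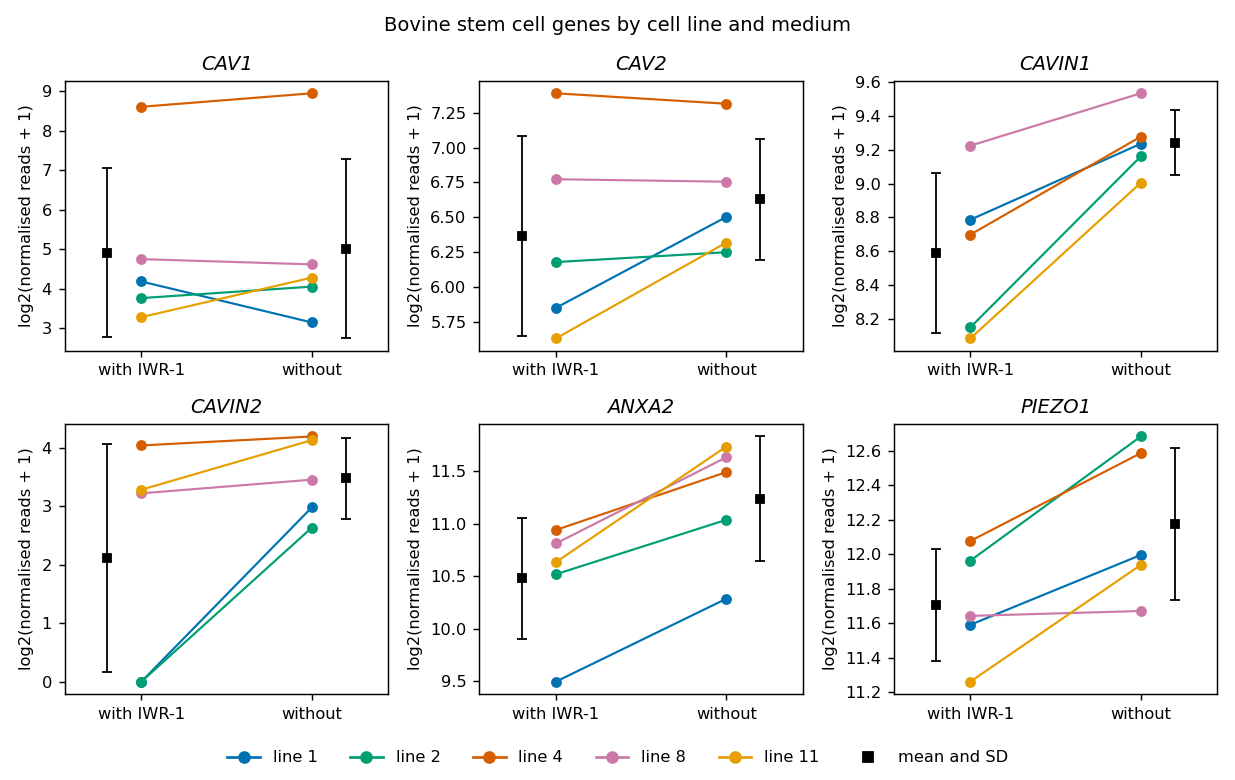
Normalised reads of the 6 bovine genes on a log2(value + 1) scale, with and without IWR-1. Each coloured line joins the 2 wells of 1 stem cell line, black squares give the mean and SD of the 5 wells, and each panel has its own scale. ANXA2, CAVIN1 and PIEZO1 slope upward in all 5 lines, and CAV1 shows line 4 far above the others in both media.

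The caveolin genes varied more between the lines than between the media, as did ANXA2 and PIEZO1 to a lesser extent. In line 4, CAV1 (gene ID 281040) reached 388 normalised reads with the inhibitor and 492 without. In lines 1, 2, 8 and 11 it stood at 17.2, 12.6, 25.9 and 8.74 with IWR-1 and at 7.88, 15.6, 23.6 and 18.5 without it. These 8 low values rest on 8 to 28 reads per library; the 95% exact Poisson interval, which covers counting error alone, was 3.45 to 15.8 reads around the lowest count of 8 and 18.6 to 40.5 around the highest of 28. The log2 fold change between the media was 0.09 ± 0.29 (SE), and within lines it ranged from -1.04 in line 1 to 1.00 in line 11. The differences in lines 1, 2, 8 and 11 are between counts this small.

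CAV2 (gene ID 493642), the partner of caveolin 1 in mixed oligomers, stood at 56.7, 71.4, 167, 108 and 48.6 normalised reads with IWR-1 in lines 1, 2, 4, 8 and 11. Without IWR-1 it stood at 89.7, 75.1, 158, 107 and 78.8. Lines 1 and 11, the 2 lowest with IWR-1, were higher without IWR-1 by 0.65 and 0.69 on the log2 scale, and lines 2, 4 and 8 lay between -0.07 and 0.07. The log2 fold change over the 5 lines was 0.26 ± 0.17 (SE), which was not called. CAV1 and CAV2 lie next to each other on bovine chromosome 4, between MET and TES, in the table of ARS-UCD2.0.

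CAVIN2 (gene ID 532333), a cavin that shapes caveolae and is found mainly in endothelium and fat, was at or near 0 in the stem cells and was left out of the test. With IWR-1 it had 0, 0, 13, 9 and 9 reads in lines 1, 2, 4, 8 and 11, and without IWR-1 7, 5, 15, 11 and 17. The 95% exact Poisson interval of a count of 0 reaches 3.69 reads. In these wells 3 reads correspond to normalised counts of 3.04 in line 1 and 3.15 in line 2. Every line had more reads without IWR-1, but the exact Poisson intervals of the 2 wells overlapped in all 5 lines.

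Differences between the lines were not used to choose these genes and were tested, with an F test of the line terms in the same limma fit. This test and the change between the media share the residual variance of each gene. Because those changes were known at the choice, the test is not fully independent of it. All 5 tested bovine genes differed between lines (adjusted p over all genes: CAV1 2.12e-05, ANXA2 4.06e-05, PIEZO1 0.00184, CAV2 0.00598, CAVIN1 0.0115). Of all bovine genes tested, 66.5% passed the same test, so that a count of 5 of 5 is close to what most genes gave. Of the variation in log2 values (sums of squares), line accounted for 97.0% in CAV1 and 84.7% in CAV2, against a median of 84.5% over all genes. The figures were 63.0% for ANXA2, 59.6% for PIEZO1 and 41.0% for CAVIN1. The medium accounted for 0.06% in CAV1, 5.85% in CAV2, 34.4% in ANXA2, 31.5% in PIEZO1 and 50.4% in CAVIN1. Its median over all genes was 1.705%. The share of the medium belongs to the comparison with which the genes were chosen and is a description. Shares of line, medium and residual add up to the whole, so a large share of the medium lowers that of the line. The result for the caveolins rested on line 4: without it the adjusted p was 0.373 for CAV1 and 0.129 for CAV2. For ANXA2 the call ended without line 1, the lowest line (adjusted p = 0.0618), and for CAVIN1 without line 8, the highest (adjusted p = 0.0547), while PIEZO1 passed whichever line was left out. In line 4 the fibroblast collagen genes COL1A2 and COL3A1 were also far above the other lines, at 28291 and 27503 normalised reads with IWR-1 against at most 372 and 484. The part of such cells in the CAV1 level of line 4 was not tested.

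The genes whose levels over the 10 libraries were most like each of the 5 were taken as the 3 with the highest Pearson r of log2 values among 14655 others with a symbol. The 10 libraries come from 5 lines in both media, so that r holds line differences and also the change between the media with which the genes were chosen. It is given as a description. For CAV1 they were PDGFC, a platelet-derived growth factor (r = 0.984), IGFBP7 (r = 0.983) and the membrane protein gene ANO4 (r = 0.982). All 3 were high in line 4: IGFBP7 stood at 938 and 1213 normalised reads there and at 41.4 to 94.3 in the other 8 wells. CAV2 followed C15H11orf96 (r = 0.95), NEXMIF (r = 0.95) and the collagen gene COL24A1 (r = 0.93), which were also highest in line 4. For ANXA2 they were the cytokine gene IL18 (r = 0.955), the lipid hydrolase gene AOAH (r = 0.931) and SYTL2, which encodes an effector of vesicle traffic (r = 0.919). IL18 and AOAH had few reads, with at most 45.7 and 65.2 normalised reads in any well. CAVIN1 was matched by STMND1 (r = 0.872), also low at 5.25 to 32.4 normalised reads, the complement regulator gene CD55 (r = 0.849) and the adhesion molecule gene MCAM (r = 0.841). PIEZO1 was matched by POMGNT2P (r = 0.920), the mitochondrial chaperone gene CLPB (r = 0.913) and ADAM11 (r = 0.908).

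In the mouse feeders the largest difference was in Cavin2, and in every pair of wells Cav1 was higher and Cav2 lower without IWR-1. All 6 mouse genes passed the filter, and 1 was called higher and 0 lower by the line-paired limma fit, with 15871 mouse genes tested. Over the whole mouse table, 2.14% of genes were called higher and 2.05% lower, and again nothing is read from the members' count. The line named for a feeder well is that of the stem cells grown on it.

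Cavin2 (gene ID 20324) stood at normalised read counts of 113, 97.3, 198, 99.97 and 209 with IWR-1 in the feeders of lines 1, 2, 4, 8 and 11. Without IWR-1 it stood at 284, 209, 546, 196 and 566. Each pair went up by a similar amount, 0.96 to 1.46 on the log2 scale, and the groups overlapped only because lines 4 and 11 were high in both media. The mean went from 144 ± 55.5 to 360 ± 182 (SD, n = 5), a log2 fold change of 1.26 ± 0.11 (SE), or 2.39-fold.

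Cav1 (gene ID 12389) stood at 7051, 6402, 8001, 8802 and 8087 normalised reads with IWR-1 and at 8774, 9336, 9072, 9831 and 9117 without it, in the feeders of lines 1, 2, 4, 8 and 11. All wells without IWR-1 but that of line 1 lay above all wells with it, and that well was just below the well of line 8 with IWR-1. The log2 fold change was 0.27 ± 0.07 (SE). It was not called by limma on the authors' scale, but it was called under 5 of 9 other settings of the processing, edgeR and DESeq2 on the recovered reads among them, and without line 8. Cav2 (gene ID 12390) stood at 1728, 1628, 1636, 1369.7 and 1511 with IWR-1 and at 1565, 1541, 1336, 1326 and 1347 without it. The value was lower in all 5 lines, with a log2 fold change of -0.15 ± 0.06 (SE), and was not called in any fit.

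Cavin1 (gene ID 19285) stood at 8901, 8039, 8019, 11128 and 11110 normalised reads with IWR-1 and at 9168, 8919.5, 8699, 11273 and 10195 without it. It was high in the feeders of lines 8 and 11 in both media, and the log2 fold change was 0.04 ± 0.06 (SE). Anxa2 (gene ID 12306) lay between 12391 and 15189 with IWR-1 and between 14098 and 16055 without it, higher in 4 of 5 lines (log2 fold change 0.10 ± 0.06 SE). Piezo1 (gene ID 234839) stood at 17034, 20679, 21100, 15419 and 20037 with IWR-1 and at 16424, 25026, 16801, 10219 and 18399 without it. Removal went with a lower value in 4 lines, most in line 8 (-0.59 on the log2 scale), and higher in line 2 (0.28). The log2 fold change was -0.16 ± 0.10 (SE), and none of these 3 genes was called in any fit.

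**Figure D2:**
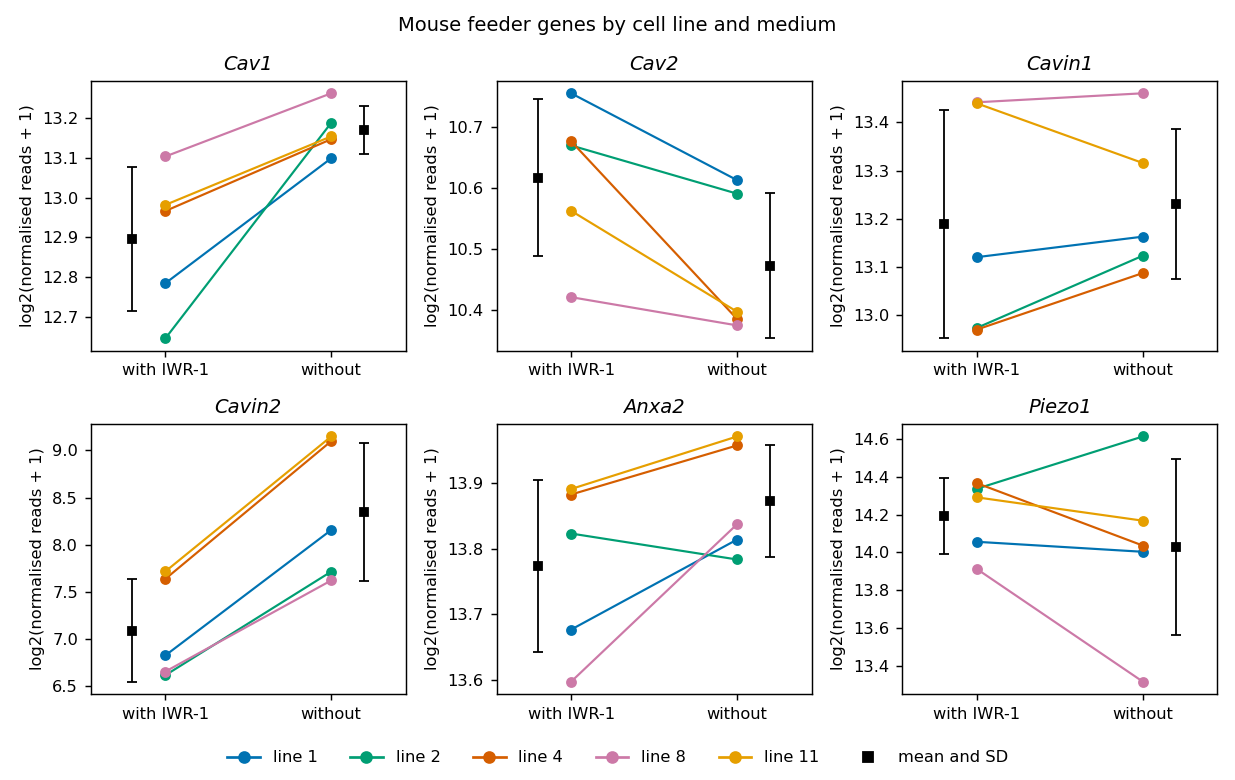
Normalised reads of the 6 mouse genes on a log2(value + 1) scale, with and without IWR-1. Each coloured line joins the 2 wells of 1 stem cell line, black squares give the mean and SD of the 5 wells, and each panel has its own scale. Cavin2 rises by 0.96 to 1.46 in all 5 pairs, Cav1 is higher and Cav2 lower in all 5.

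Between feeder wells of different lines, Cavin2 (adjusted p = 0.000129), Cavin1 (adjusted p = 0.0130) and Piezo1 (adjusted p = 0.0133) differed in the limma F test, and Cav1, Cav2 and Anxa2 did not pass it (adjusted p = 0.273, 0.159 and 0.276). Of all mouse genes tested, 35.1% passed. As in the bovine table, the test shares its residual variance with the known changes between the media. The call for Piezo1 ended without line 8 (adjusted p = 0.0698), the line with its lowest values in both media. Cavin1 and Cavin2 passed whichever line was left out.

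The changes of the bovine genes can be set beside those of their mouse counterparts. ANXA2, CAVIN1 and PIEZO1 had log2 fold changes of 0.76, 0.66 and 0.47 in the stem cells and 0.10, 0.04 and -0.16 in the feeders of the same wells. CAV1 and CAV2 had 0.09 and 0.26 in the stem cells and 0.27 and -0.15 in the feeders. CAVIN2 was higher in 5 of 5 lines in both species, by 1.26 in the feeders and at very few reads in the stem cells. The difference between species was not tested, since both changes belong to the comparison with which the genes were chosen.

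**Figure D3:**
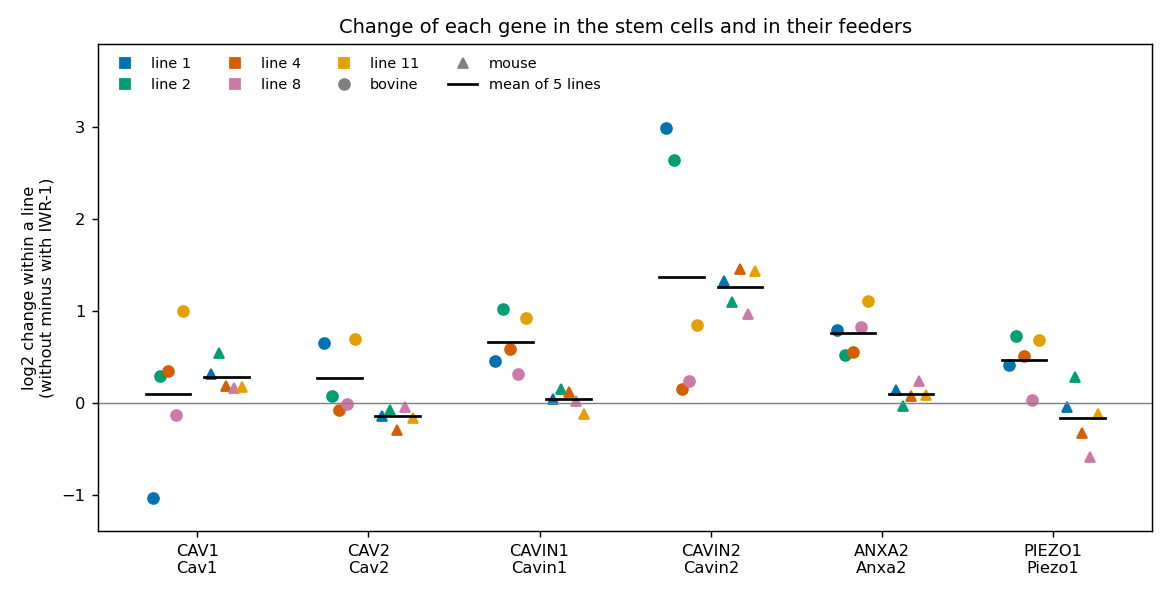
Change of each gene within a line, as log2(value + 1) without IWR-1 minus with IWR-1. Circles are bovine and triangles mouse values of 1 line each, and black bars are means of the 5 lines. Bovine ANXA2 (0.52 to 1.10) and mouse Cavin2 (0.96 to 1.46) lie above 0 in all lines, and bovine CAV1 and CAVIN2, which scatter widely, had counts under 30 reads in most wells.

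Reads that fit both genomes could raise a bovine value from the feeders; no source used here states how they were treated. CAV1 had 0.0798 to 0.328 bovine reads per 100 mouse Cav1 reads in lines 1, 2, 8 and 11, and 2.46 and 2.82 in line 4. CAV2 had 2.37 to 10.8 and CAVIN1 1.79 to 8.77 bovine reads per 100 mouse reads over all wells. ANXA2 had 6.13 to 29.0 and PIEZO1 9.04 to 42.6. For ANXA2, CAV2, CAVIN1 and PIEZO1 this ratio was higher without IWR-1 in every line, but it is of unscaled reads, and the mouse share of all reads was lower in every line too. CAV2 in lines 4 and 8 had a higher ratio although its normalised value was lower (167 and 158 in line 4, 108 and 107 in line 8). For CAVIN2, with 0 to 17 bovine reads, it was 0 to 9.28. Reads on mouse Piezo1 numbered 14960 and 8444 with and without IWR-1 in line 8 while those on bovine PIEZO1 numbered 3450 and 3593. The part of feeder reads in the bovine values was not tested read by read. In a fit that also held each well's mouse share, the log2 fold changes were 0.48 for ANXA2, 0.41 for CAVIN1 and 0.37 for PIEZO1, and 0 genes of the whole bovine table were called, with 456 at an unadjusted p under 0.05.

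**Figure D4:**
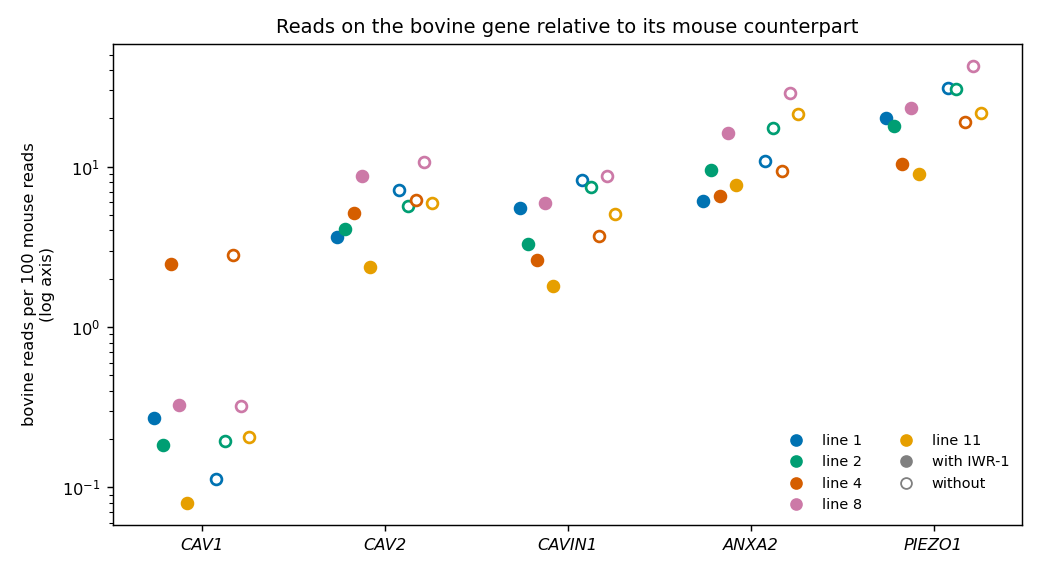
Reads on each bovine gene per 100 reads on its mouse counterpart in the same library, on a log axis. Filled circles are wells with IWR-1 and open circles wells without it, coloured by line, and CAVIN2 is left out because 2 of its values are 0. CAV1 lies at 0.0798 to 0.328 in 4 lines and above 2 in line 4, and the open circles of ANXA2 and PIEZO1 lie above the filled ones of the same line.

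Of the other genes of these pathways, listed from textbook knowledge, limma called 0 in the stem cells. Of 13 further caveola genes 12 matched a symbol and 11 were tested. Limma called 0 of them, with 2 at an unadjusted p under 0.05, and edgeR and DESeq2 each called 0. Of all 18506 genes tested, limma called 164 higher and 12 lower, with 1870 at an unadjusted p under 0.05. DESeq2 called 358 higher and 62 lower. The list's median log2 fold change was 0.09, against 0.00 for all genes. The membrane-bending proteins of caveola necks PACSIN2 and PACSIN3 had log2 fold changes of 0.19 ± 0.06 and 0.26 ± 0.08 (SE; limma adjusted p = 0.187 and 0.226). EHD4 and EHD1, of a family of membrane-remodelling ATPases, had 0.15 ± 0.08 and 0.09 ± 0.06 (limma adjusted p = 0.583 and 0.700). EHD1 was the more abundant, with means of 3782 ± 366 and 4035 ± 445 normalised reads in the respective media (SD, n = 5).

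Of 12 tested annexins and partners of annexin A2, limma called 0, with 5 at an unadjusted p under 0.05; edgeR called 0 and DESeq2 called 3, ANXA1, ANXA6 and S100A10. The median was 0.04, and 7 of the 12 had a positive log2 fold change. S100A10, the light chain of the annexin A2 complex, stood at 29.4, 15.8, 431, 68.5 and 21.4 normalised reads with IWR-1 in lines 1, 2, 4, 8 and 11. Without IWR-1 it stood at 54.2, 16.7, 694, 117 and 93.4. It was higher in 5 of 5 lines, with line 4 far above the others (0.89 ± 0.25 SE on the log2 scale, adjusted p = 0.176 in limma). The scaffold gene AHNAK, whose product binds the annexin A2 and S100A10 complex, had 0.58 ± 0.15 (limma adjusted p = 0.122), higher in 4 of 5 lines. ANXA1, an annexin linked to inflammation, had 0.44 ± 0.11 and ANXA6 0.23 ± 0.06 (limma adjusted p = 0.119 and 0.136), each higher in 5 of 5 lines. ANXA6 was at 17211 ± 1605 and 20161 ± 2239 normalised reads (SD, n = 5).

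Of 18 tested mechanosensitive channels and PIEZO regulators other than PIEZO1, limma called 0, with 1 at an unadjusted p under 0.05, and edgeR and DESeq2 each called 0. The median was 0.00, and 9 of 18 were positive. TRPV4, an osmotically gated cation channel, was lower in 5 of 5 lines, with a log2 fold change of -0.36 ± 0.15 (SE, limma adjusted p = 0.445). PIEZO2, the second PIEZO channel, had few reads, with means of 43.6 ± 83.4 with IWR-1 and 29.7 ± 41.5 after its removal (SD, n = 5). Its log2 fold change of 0.49 ± 0.38 was positive while its mean level was lower. TMC2 had 0.14 ± 0.13 and TMEM63B -0.07 ± 0.06 (limma adjusted p = 0.850 for both).

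**Figure D5:**
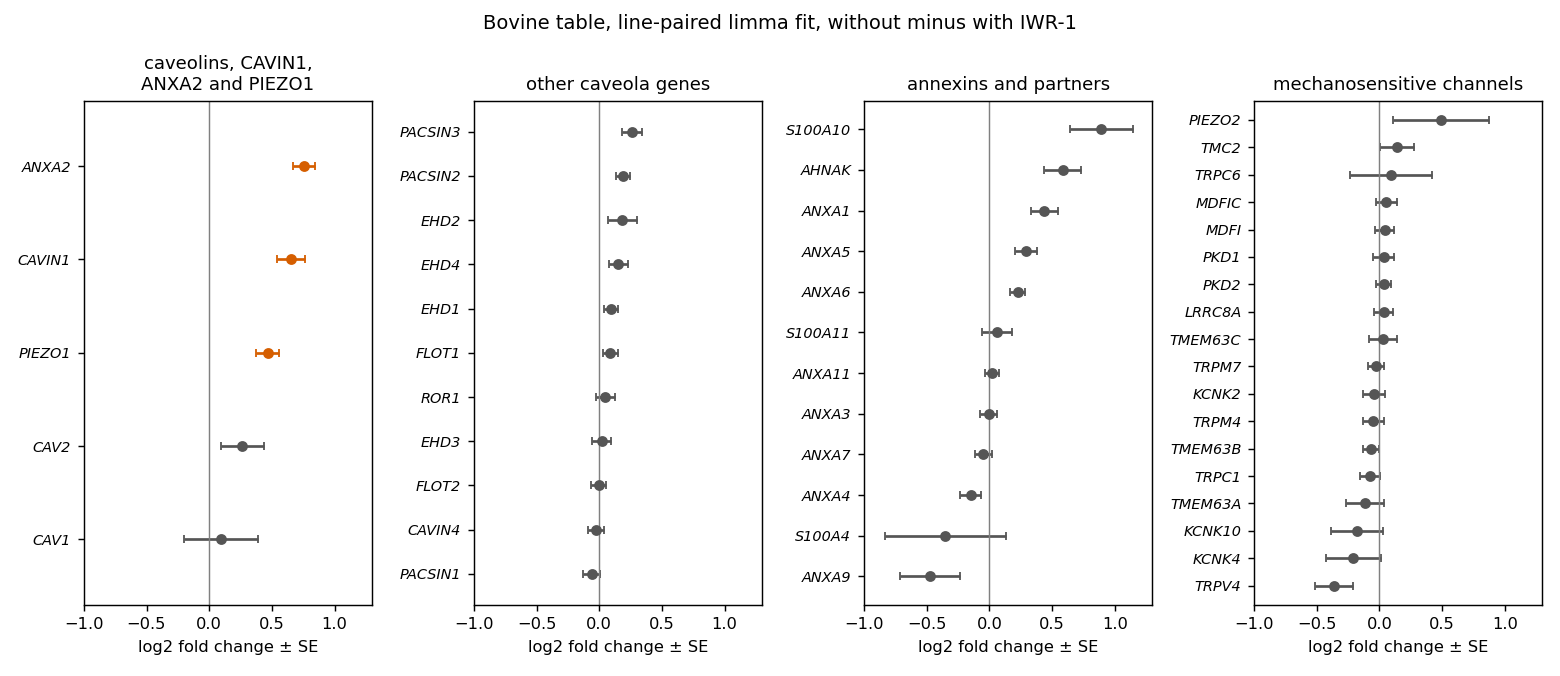
Log2 fold change between media (points) and SE (bars) in the bovine table, from the line-paired limma fit, for the 5 tested genes of the group and for 3 lists of related genes. Orange marks genes called at an adjusted p under 0.05 over all genes. The orange points are ANXA2, CAVIN1 and PIEZO1.

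Markers of pluripotent stem cells, of 3 cell types rich in caveolae and of trophectoderm gave these values beside the changes. Over all 18506 bovine genes tested, limma called 0.886% higher and 0.0648% lower, with 1870 at an unadjusted p under 0.05. Higher and lower calls numbered 178 and 12 with edgeR, and 358 and 62 with DESeq2. Among the 8 pluripotency markers limma called 1, NANOG, higher and 0 lower; DESeq2 called 2, NANOG higher and DNMT3B lower. DNMT3B, a DNA methyltransferase gene, had a log2 fold change of -0.27 ± 0.07 (SE) and was lower in 5 of 5 lines. Of 6 tested smooth muscle markers limma called 3 higher, ACTA2, TAGLN and CNN1, and 0 lower; DESeq2 also called MYH11 higher. MYOCD, which encodes a smooth muscle coactivator, had a lower value in 5 of 5 lines (log2 fold change -0.61 ± 0.19 SE, limma adjusted p = 0.226), and DES had -0.05 ± 0.13. The summed level of all 6 was 3520 to 31438.5 with IWR-1 and 6401 to 53681 without it, with none at 0. Of 11 tested fibroblast markers limma called 0, with 4 at an unadjusted p under 0.05; edgeR called 0 and DESeq2 called 2, COL1A1 and PDGFRB. Their summed level was 50504 to 238290 with IWR-1 and 50416 to 253443 without it. The fibroblast activation gene FAP was at 0 in both wells of lines 1, 2, 8 and 11. Of 6 tested endothelial markers limma called 1, the angiopoietin receptor gene TEK, with a log2 fold change of 0.59 ± 0.11 (SE, limma adjusted p = 0.0328). The summed level of the 8 markers matched was 1100 to 3185 with IWR-1 and 1042 to 4101 without it, while PECAM1, the endothelial adhesion molecule, had a mean of 12.01 and 9.12. Of 8 listed trophectoderm markers, 4 were tested. Limma called the keratins KRT8 and KRT18 higher, and did not call KRT7 and TFAP2C, with 0.11 ± 0.15 and 0.07 ± 0.41 (SE). CDX2, GATA2, GATA3 and ELF5 did not pass the filter on low values. GATA2, GATA3 and ELF5 had at most 12.6, 32.1 and 5.83 normalised reads in any well. CDX2 had at most 1.19, except for 86.6 in line 4 without IWR-1. The list's summed level was 3661 to 30876 with IWR-1 and 8347 to 58814 without it, most of it from KRT8 and KRT18. The part of any of these cell types in the changes of ANXA2, CAVIN1 and PIEZO1 was not tested.

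The genes beside them on the chromosome were not called. Among the 2 nearest protein-coding genes on either side of each of the 6, 17 others were tested, and limma called 0 of them, with 1 at an unadjusted p under 0.05; edgeR and DESeq2 each called 0. Their log2 fold changes ran from -0.16 for STAT3, beside CAVIN1, to 0.24 for FOXB1, beside ANXA2. Over the whole bovine table limma called 0.886% of genes higher and 0.0648% lower. Of 18506 genes, 1870 had an unadjusted p under 0.05. The counts for the neighbours are close to these shares, and nothing is read from them.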

How the data were processed

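Poly(A) RNA of 10 co-culture wells was sequenced. Per the labels, reads were aligned once to bovine ARS-UCD1.3 and once to mouse GRCm39. Among the tools in the submitters' processing notes are featureCounts 1.5.0-p3 and HISAT2 2.0.5, with no roles stated. The deposited tables hold a normalised signal per gene and library. Its entries are whole multiples of 1 step per library, at a tolerance of 0.01 reads for 100% of positive values, so reads were recovered by dividing by that step. No source used here names the scaling. Of the mouse value columns, 2 matched no sample and were not used. Of 27590 bovine IDs 24660 matched the RefSeq gene table of ARS-UCD2.0, and of 31349 mouse IDs 0 did.

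Genes reaching a value of 10 in 5 or more libraries were fitted with limma 3.58.1 (R 4.3.3, intensity trend) on log2(value + 1), with medium and line as terms, for each species alone. Because 1 is added, the fold changes of low genes are understated. Benjamini-Hochberg adjusted p-values cover all genes tested. edgeR 4.0.16 and DESeq2 1.42.0 on recovered reads, other pseudocounts, scalings and filters, and fits without each line were alternatives. The line numbers pair the wells, since the labels give both wells of a number the same cell line. The wells of a line deviated together from their group means, with r of 0.617 to 0.883 (bovine) and 0.488 to 0.725 (mouse). Only the line-paired limma fit between the media was tried on simulated counts with known fold changes, and its outcome is not given here. The genes and lists were chosen with earlier results of these data known. Named from each pathway list were its called genes or, failing 4 of these, those with the smallest adjusted p up to 4; the genes most alike were the 3 with the highest r per gene. Single genes outside this rule (the markers and the neighbours) were named after their values were seen.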

Additional observations from a re-analysis of the deposited data

Results flagged for a closer look

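In groups of 5 wells a value was singled out when its gap to the next exceeded 0.71 of the group's range (Dixon's criterion), which chance gives in about 1 of 20 groups; 26 groups were examined. Bovine CAV1 in the wells of line 4 stood apart in both media, at 388 normalised reads with IWR-1 (gap 0.955 of the range) and 492 without it (0.968). The mouse share of reads in the well of line 4 without IWR-1, 41.4%, stood apart too (0.73 of the range).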

How the results depend on the processing

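The main fits called 3 of 5 tested bovine genes and 1 of 6 mouse genes between the media. Without the replicate block 0 and 0 were called, and with the mouse share as a covariate also 0 and 0; 2 bovine genes (CAVIN1, ANXA2) and 2 mouse genes (Cavin2, Cav1) had an unadjusted p under 0.05 in the first fit, and 1 (ANXA2) and 1 (Cavin2) in the second. Over the whole tables, 105 bovine and 584 mouse genes had an unadjusted p under 0.05 in the first limma fit. In the second they numbered 456 and 687. The mouse share moved with the medium in every line. Without the filter on low values 1 bovine gene, ANXA2, was called. Mouse calls numbered 2 (Cavin2 and Cav1) with a pseudocount of 5, edgeR, DESeq2, CPM or TMM-scaled CPM. With CPM the call for PIEZO1 ended (log2 fold change 0.44). With 1 line left out, bovine calls numbered 1 to 3 and mouse calls 1 to 2; those for differences between lines numbered 3 to 5 in the bovine table. The log2 fold change of CAV1 changed sign with the covariate (-0.60) and without line 11 (-0.13; 0.37 at most with 1 line left out), and that of CAV2 with the covariate (-0.0032); neither was called in any fit. Over all genes, higher and lower calls were 164 and 12 in the bovine and 340 and 325 in the mouse table; they were 0 throughout without the block or with the covariate, 51 and 2 (bovine) and 169 and 160 (mouse) without the filter, and 358 and 62 with DESeq2 (bovine). Leaving out lines gave 31 to 160 higher bovine calls and 137 to 478 mouse ones. Without the filter the line difference of mouse Piezo1 missed the threshold (adjusted p = 0.056). The cause of these shifts was not tested. The mouse share of reads was lower by -4.32 to -2.90 points with 1 line left out, and the unpaired exact permutation test gave p = 0.452. Depth limits what can be said of CAV1 outside line 4 and of CAVIN2, which rest on 0 to 28 reads per library.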

Other observations

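Among caveola genes outside the group, CAVIN4, a cavin known from muscle, was present in all stem cell wells at 848 to 1160 normalised reads (log2 fold change between the media -0.03 ± 0.07 SE). CAVIN3, a cavin that binds protein kinase C delta, was near 0 in lines 1, 2, 4 and 11, with at most 3.13 normalised reads, and stood at 36.1 and 49.0 with and without IWR-1 in line 8. Both were singled out after their values were seen, and no cause was tested.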
